A study of Mus musculus with 6 samples.

Results

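Complement is a cascade of plasma and cell-surface proteins that is started by C1q or by lectins bound to a surface, or runs continuously at a low level through the alternative pathway, and that ends in a pore in the target membrane. Host cells hold it back with fluid-phase inhibitors such as the C1 inhibitor and factor I and with membrane-anchored regulators such as CD55 and CD59. The glomerular capillary wall is a known site of complement injury, and tubule cells and macrophages of the kidney make several components themselves.

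Described here are the transcripts of complement components and regulators in isolated mouse glomeruli, taken as every probe set of the array whose annotation symbol was 1 of 9 named genes. Of these 9 genes, 7 had a probe set of their own (C1qa, C1qb, C1qc, Cfi, Cd55, Cd59a and Serping1), 12 probe sets of the 45101 on the array. C4b had only a probe set that it shares with C4a, and C3 was not analysed here because no probe set in the annotation used carried its symbol. The samples were glomeruli isolated with magnetic beads from female mice aged 6 weeks, 1 Affymetrix array per mouse. In 3 mice, called Vhl-deleted here, a Cre transgene driven by podocin had excised a floxed von Hippel-Lindau gene (Vhl) in podocytes, so other glomerular cells keep the gene, and only mice whose albumin in urine at 4 weeks did not exceed the wild-type average were taken. The other 3 mice were wild-type littermates, whose alleles at the floxed locus and transgene are not given beyond that word.

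Values are MAS5 signals, the array software's summary of a probe set on a linear scale, and they can be compared between arrays for 1 probe set but not between probe sets. Changes are differences of log2(signal + 28), Vhl-deleted minus wild-type, with n = 3 arrays per group throughout. Egln3, a HIF target used as a check of the labels, had signals of 144, 171 and 149 in the wild-type and 5098, 4792 and 3678 in the Vhl-deleted arrays, while Vhl itself changed by -0.23 (95% interval -0.51 to 0.04). Defining markers of podocytes (Nphs1), endothelium (Pecam1) and mesangium (Pdgfrb) had signals of at least 3993 on every array. Lrp2, a proximal tubule marker, lay between 1018 and 6282, lowest in wild-type replicate 3.

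None of the members passed the test between genotypes. Of the 7 members with a probe set, 4 lay in the brighter part of the array that was tested (Serping1, Cfi, Cd55 and Cd59a), and 0 of these 4 had a limma adjusted p under 0.05, where 0.0807% of all 11159 genes tested did. At an unadjusted p under 0.05 the count was also 0 of 4, against 4.92% of all genes. Serping1 and Cfi had positive changes and Cd55 and Cd59a negative ones, with a median of -0.08 against 0.00 over all genes tested, and the signals of the genotypes overlapped in all 4 (they did not overlap in 10.7% of all genes). In each of the 4 the residual SD within genotypes was larger than the change between them: Cd59a and Cd55 were lowest in wild-type replicate 2 and Vhl-deleted replicate 3.

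Serping1 encodes the C1 inhibitor, the serpin that inactivates the C1r and C1s proteases. Its signals were 1399, 1735 and 1593 in wild-type replicates 1 to 3 and 1631, 1634 and 1868 in Vhl-deleted replicates 1 to 3. The arrays were close to each other, with the lowest signal in wild-type replicate 1 and the highest in Vhl-deleted replicate 3. The wild-type mean was 1576 ± 168 (SD, n = 3) and the Vhl-deleted mean 1711 ± 136 (SD, n = 3), a change of 0.12 (SE 0.12, 95% interval -0.16 to 0.40, limma adjusted p = 0.944). The residual SD of Serping1 within genotypes, 0.13 on the log2 scale, was smaller than the median of 0.20 over all genes tested. The change was 0.038 when wild-type replicate 1 was left out, 0.056 when Vhl-deleted replicate 3 was and 0.19 when wild-type replicate 2 was.

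Cfi encodes factor I, the protease that cleaves C3b and C4b when a cofactor is present. Its signals were 197, 308 and 99.0 in the wild-type and 169, 105 and 395 in the Vhl-deleted arrays. Wild-type replicate 2 and Vhl-deleted replicate 3 were the highest arrays and wild-type replicate 3 the lowest, so each genotype spanned most of the range. The change was 0.07 (SE 0.50, 95% interval -1.10 to 1.24, limma adjusted p = 0.985), an interval wide enough to hold a doubling or a halving of the signal. The direction turned to -0.30 when wild-type replicate 3 was left out and to -0.39 when Vhl-deleted replicate 3 was. The within-genotype SD of 0.78 exceeded that of 97.0% of the genes tested.

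Cd55 encodes decay-accelerating factor, a membrane protein that takes apart the C3 and C5 convertases. By the brightest of its probe sets (1418762_at) the signals were 1855, 1518 and 1965 in the wild-type and 1809.9, 1596 and 1156 in the Vhl-deleted arrays. Vhl-deleted replicate 3 was the lowest array and wild-type replicate 2 the next. The wild-type mean was 1779 ± 233 (SD, n = 3) and the Vhl-deleted mean 1521 ± 334 (SD, n = 3), a change of -0.24 (SE 0.19, 95% interval -0.68 to 0.20, limma adjusted p = 0.944). Without Vhl-deleted replicate 3 the change was -0.06. The other probe sets gave the same order at the low end: 1460242_at had signals of 1438, 1034 and 1830.5 in the wild-type and 1281, 1268 and 763 in the Vhl-deleted arrays, and 1443906_at had 733, 691 and 1294 against 765, 748 and 448. Fitted among all kept probe sets, these changed by -0.37 (95% interval -0.99 to 0.25) and -0.43 (95% interval -1.11 to 0.24), with a limma adjusted p of 0.963 each. A probe set annotated to both Cd55 and its paralogue Cd55b (1427632_x_at) had signals of 0.44 to 46.6 and was not used for either gene.

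Cd59a encodes the membrane protein that stops assembly of the membrane attack complex, and it was the member that varied most. By its brightest probe set (1418710_at) the signals were 4592, 1811 and 4928 in the wild-type and 3943, 4223 and 1188 in the Vhl-deleted arrays. Wild-type replicate 2 and Vhl-deleted replicate 3 stood far below the other 4 arrays, whose mean of 4422 was 2.44-fold and 3.72-fold higher. The other probe set (1429830_a_at) had signals of 4123, 1565 and 4358 in the wild-type and 4095, 3759 and 1134 in the Vhl-deleted arrays, with the same arrays low and the same arrays high. Between genotypes the change was -0.35 (SE 0.57, 95% interval -1.68 to 0.99, limma adjusted p = 0.944), and the second probe set changed by -0.23. The direction rested on Vhl-deleted replicate 3, at 0.24 when that array was left out. It stayed negative when any other single array was left out, at -0.81 without wild-type replicate 2. The within-genotype SD of 0.91 exceeded that of 98.2% of the genes tested.

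**Figure D1:**
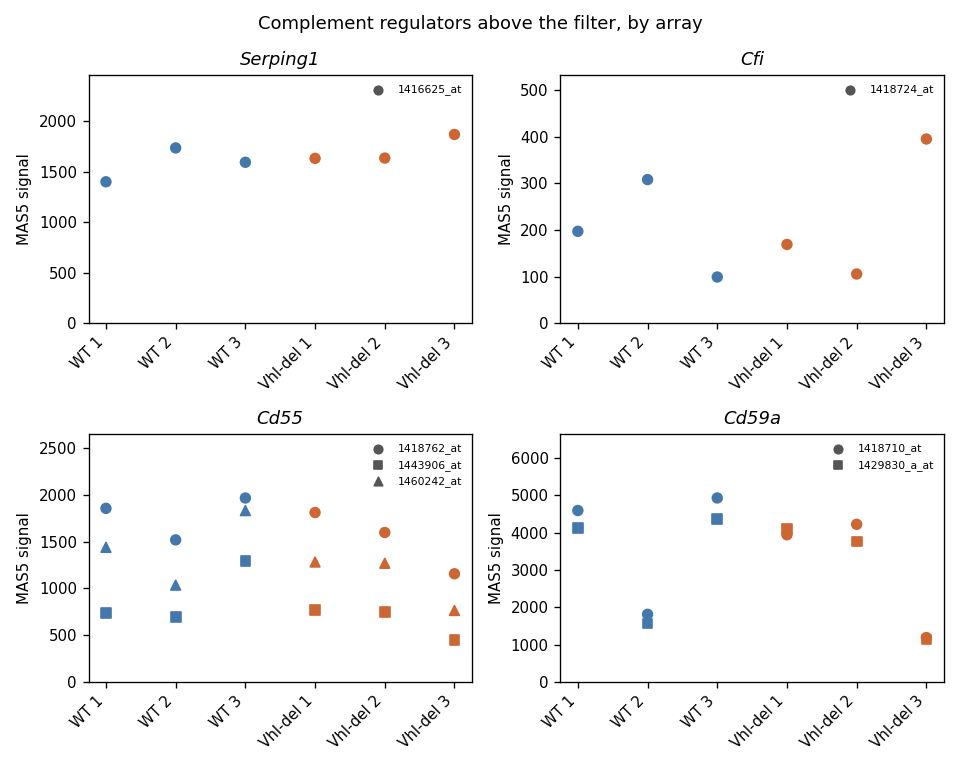
MAS5 signal (linear axis from 0) of every probe set of Serping1, Cfi, Cd55 and Cd59a on each of the 6 arrays (blue, wild-type, WT; orange, Vhl-deleted, Vhl-del); each point is 1 array and the marker shape gives the probe set. Both Cd59a probe sets lie between 1134 and 1811 in wild-type replicate 2 and Vhl-deleted replicate 3 and between 3759 and 4928 in the other arrays, while Serping1 stays between 1399 and 1868.

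Over the 6 arrays, Cd59a and Cd55 followed each other, and Cfi and Serping1 ran opposite to both. As a description across arrays that include both genotypes, Pearson's r of the log2 values was 0.923 between the brightest probe sets of Cd55 and Cd59a, 0.993 between both probe sets of Cd59a, -0.901 between Cfi and Cd59a, -0.827 between Serping1 and Cd59a, and 0.532 between Cfi and Serping1. With Cd55 it was -0.762 for Cfi and -0.812 for Serping1. Genes most like Cd59a by this measure, outside complement, were Eif4e3 (r = 0.999), Stx16 (r = 0.997), Prmt2 (r = 0.995) and Adck2 (r = 0.991). With 6 points such values are common: 2.24% of 11143 genes reached an r of 0.9 with Cd59a and 2.34% with Cd55.

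Other genes separated the same arrays. Among all genes tested, wild-type replicate 2 and Vhl-deleted replicate 3 were both below the other 4 arrays in 11.4% and both above them in 14.5%. Fos and Egr1, immediate early genes that cells switch on within minutes of stimulation, had signals of 25604 and 25272 in wild-type replicate 2 and 26580 and 24902 in Vhl-deleted replicate 3, against 9603 to 13256 and 4376 to 6982 in the other arrays. The mean log2 level of 10 immediate early genes was 13.18 in both of these arrays and between 11.22 and 11.68 in the others, with a summed signal of 42905 to 126476 in wild-type and 49008 to 126568 in Vhl-deleted arrays. The heat shock genes Hspa1a, Hspa1b, Dnajb1 and Hsph1 had a mean log2 level of 12.72 and 11.74 there, and 11.83 to 13.24 on the other arrays. These and the immediate early genes were first listed together, and that list was split after its values were seen. The contrast between them is therefore a description only. The 13 proximal tubule markers tested were highest on the arrays where Fos and Egr1 were, at a mean log2 level of 12.43 and 12.67, and lowest at 10.27 in wild-type replicate 3. The ratio of 3′ to 5′ probe sets of Gapdh, which reflects RNA quality, was 0.777 and 0.829 in the same arrays and 0.773 to 0.824 in the others. When the tubule marker level was added to the model, the genotype change was 0.072 for Cd59a, -0.12 for Cd55 and -0.37 for Cfi, and none passed. The part of the tubule markers and of the immediate early genes in these levels was not tested.

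**Figure D2:**
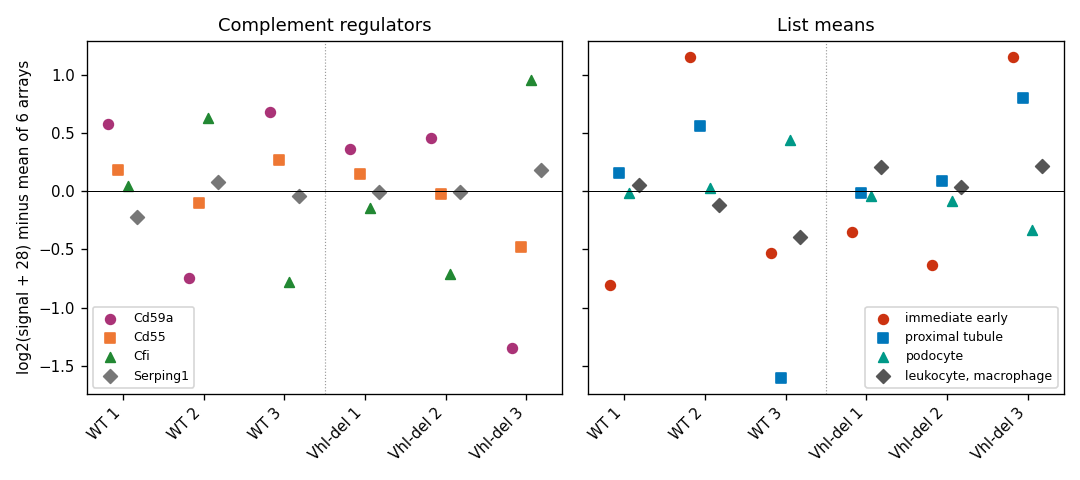
Deviation of log2(signal + 28) from the mean of the 6 arrays, for the brightest probe sets of 4 complement regulators (left) and for the means of 4 gene lists (right); each point is 1 array, and the dotted line parts wild-type (WT) from Vhl-deleted (Vhl-del) arrays. Cd59a is lowest, and Cfi and the immediate early list highest, in wild-type replicate 2 and Vhl-deleted replicate 3.

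Because Cd55 and Cd59a went together over the arrays, the stretches before their transcript starts were read from RefSeq's promoter table (GRCm38.p6), which held entries for Cd55, Cd59a, C1qb and C1qc among the 7 genes. Letters searched on both strands, from 250 bases before to 50 after the start, were ACGTG and GCGTG (forms of the core that HIF binds), GAGGAA (a PU.1 core) and the interferon-stimulated response element (ISRE). Matches are in capitals. The Cd59a stretch (chr2:104095551-104095752, plus strand) ends before the gene's first annotated base. The 30 bases of Cd55 (chr1:130462773-130462802, minus strand) lie around its match, in a window that lies inside the annotated gene. The Cd55 match reads GCGTG on the opposite strand.
Cd59a: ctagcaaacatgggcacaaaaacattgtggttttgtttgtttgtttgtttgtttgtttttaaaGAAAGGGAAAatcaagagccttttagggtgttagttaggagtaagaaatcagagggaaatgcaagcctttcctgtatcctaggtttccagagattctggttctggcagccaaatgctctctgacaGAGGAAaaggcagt
Cd55: aacgccctcttgCACGCaggctgccccacc
Neither window held ACGTG, which was present in 19.6% of the 32851 windows of the table. GCGTG was present in both, at bases -46 to -42 of Cd55 and at bases 10 to 14 after the start of Cd59a, and in 32.4% of all windows. The ISRE match of Cd59a is of a kind found in 3.44% and its GAGGAA match in 28.3% of windows. C1qb and C1qc each held 1 GAGGAA match. A match is a description of the letters and not a site.

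C1qa, C1qb and C1qc encode the A, B and C chains that assemble into C1q, the recognition molecule of the classical pathway, which tissue macrophages are known to make. All 5 of their probe sets were too dim to be tested (the filter lay at a signal of about 96.4), and of their 30 values 1 lay above that level. C1qa had signals of 6.12, 8.03 and 9.03 in the wild-type and 10.3, 4.30 and 42.0 in the Vhl-deleted arrays. C1qc had 2.70, 2.37 and 24.9 in the wild-type and 4.96, 4.45 and 55.5 in the Vhl-deleted arrays. For both, Vhl-deleted replicate 3 was the highest array and the other arrays of the genotypes overlapped.

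The brightest C1qb probe set (1434366_x_at) had signals of 62.8, 36.8 and 55.6 in the wild-type and 69.3, 50.2 and 138 in the Vhl-deleted arrays. A second (1417063_at) had 32.0, 8.98 and 51.3 against 2.92, 36.6 and 95.4, and the last (1437726_x_at) had 18.9, 52.8 and 49.6 against 75.8, 7.55 and 56.4. In 4 of the 5 C1q probe sets the highest signal was that of Vhl-deleted replicate 3. That array was also the highest for Serping1 and Cfi and the lowest for Cd55 and Cd59a. How often it is highest over all probe sets was not counted. Without a filter, the 5 changes ran from 0.03 to 0.46 with a limma adjusted p between 0.978 and 0.997, so no difference was detectable at these signals, which does not show that C1q transcripts are absent. The genes most like the mean of the C1q chains over the 6 arrays were Ring1 (r = 0.992), Ndufaf4 (r = 0.987), Rtp4 (r = 0.983) and Yipf2 (r = 0.978), where 0.682% of genes reached 0.9.

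**Figure D3:**
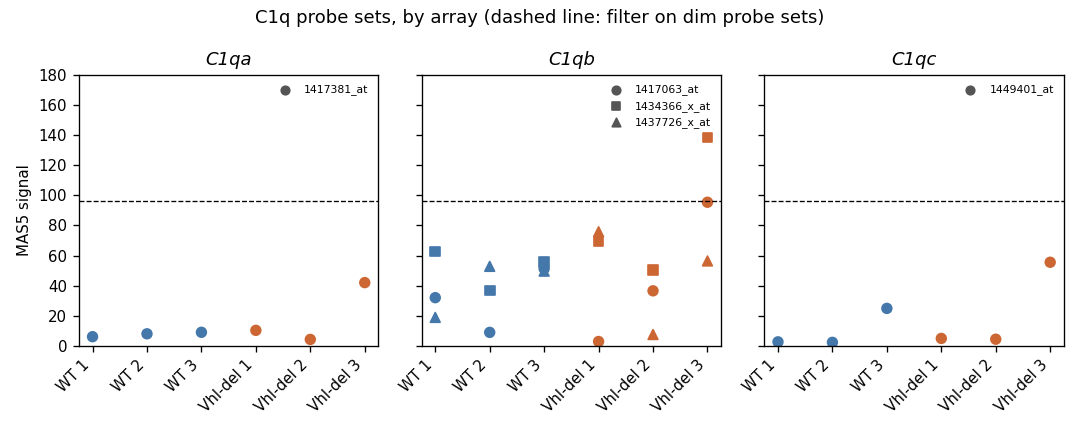
MAS5 signal (linear axis from 0) of the 5 probe sets of C1qa, C1qb and C1qc on each array (blue, wild-type, WT; orange, Vhl-deleted, Vhl-del), with the filter on dim probe sets as a dashed line at 96.4. Only 1 value, C1qb in Vhl-deleted replicate 3 at 138, lies above the line.

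Leukocyte and macrophage markers were measured beside C1q. Ptprc, the common leukocyte antigen, had signals of 729, 473 and 485 in the wild-type and 826, 928 and 939 in the Vhl-deleted arrays, which did not overlap. Its change of 0.67 (95% interval 0.25 to 1.10) did not pass (limma adjusted p = 0.720). The macrophage antigen gene Adgre1 lay between 91.4 and 202 with a change of -0.13. Of 12 tested markers of 19 listed, 11 lay higher in the Vhl-deleted arrays on average (median change 0.31), where 50.9% of all genes tested did. By limma 0 of the 12 passed, with 3 at an unadjusted p under 0.05 against 4.92% of all genes. Without wild-type replicate 3 the median was 0.23, with 10 of 12 positive. Their summed signal was 7840 to 9793 in wild-type and 10363 to 11957 in Vhl-deleted arrays. Their mean log2 level overlapped between genotypes, at 8.52 to 8.97 in wild-type and 8.96 to 9.14 in Vhl-deleted arrays. In bulk glomeruli, more cells of a type and more RNA per cell cannot be told apart.

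The probe set shared by C4a and C4b (1418021_at), which cannot be assigned to either gene, had signals of 95.3, 142 and 114 in the wild-type and 61.8, 92.2 and 280.1 in the Vhl-deleted arrays. Vhl-deleted replicate 3 was highest, and the other Vhl-deleted arrays lay below all wild-type arrays. This probe set was left out of the test.

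For the rest of the cascade, 36 of 42 further complement genes had a probe set of their own. Of all 18193 genes with a single symbol, 11159 were bright enough to be tested, and of these 36 complement genes 12 were. None rose or fell by limma's adjusted p, where 0.0807% of all genes tested did, and 1 of the 12 had an unadjusted p under 0.05, against 4.92% of all genes. Positive changes were seen in 11 of the 12, with a median of 0.16, and in 50.9% of all genes tested. The count depended on wild-type replicate 3: without it 6 of the 12 were positive, with a median of 0.02, and with the tubule marker level in the model 7 of the 12, with a median of 0.03. Of the proteases that act with C1q, C1s1 was even over the arrays, at 1328 to 1514, with a change of 0.04 (95% interval -0.21 to 0.28). C1ra lay at 313 to 447, highest in Vhl-deleted replicate 3, with a change of 0.03 (95% interval -0.37 to 0.43). C2, which supplies the protease of the classical C3 convertase, changed by 0.23 (95% interval -0.76 to 1.22) by its brightest probe set. The signal of that probe set was 133 in wild-type replicate 3 and 359 to 476 elsewhere. Its other kept probe sets, also lowest in wild-type replicate 3, changed by 0.18 and 0.56. Cfb, factor B of the alternative pathway, had signals of 1009, 1156 and 229 in the wild-type and 855, 882 and 1537 in the Vhl-deleted arrays. Wild-type replicate 3 again stood below the others, as it did for 8 of the 16 complement genes tested and for 27.5% of all genes. The change of Cfb was 0.67 (95% interval -0.69 to 2.02, limma adjusted p = 0.944), and -0.037 without that array. The tubule markers were lowest in the same array (a summed signal of 24416, against 81873 to 135134 elsewhere), and with their level in the model the change of Cfb was 0.046. The part of the tubule markers in the levels of Cfb and C2 was not tested.

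Among receptors, Itgb2, the beta chain of complement receptors CR3 and CR4 on leukocytes, had signals of 310, 258 and 182 in the wild-type and 374, 349 and 453 in the Vhl-deleted arrays. The arrays of the genotypes did not overlap. The change of 0.61 (SE 0.21, 95% interval 0.13 to 1.10) had an unadjusted p of 0.0206 and did not pass (limma adjusted p = 0.874). Cd93, an endothelial and myeloid surface protein, changed by 0.16 (95% interval -0.12 to 0.43) by its brightest probe set. Its other kept probe sets changed by 0.05 and -0.01. C1qbp, a mitochondrial protein that binds C1q heads, changed by 0.17 (95% interval -0.35 to 0.68), and by 0.13 by its other kept probe set. Cr1l, the rodent membrane regulator Crry, varied least of the regulators tested by its brightest probe set, at 3053 to 3544 with a change of -0.00 (95% interval -0.25 to 0.24). Its dimmer kept probe set (1430131_at) varied more, at 119 to 265 with a change of -0.19 (95% interval -0.83 to 0.45). Clusterin (Clu), a fluid-phase inhibitor of the terminal complex, changed by 0.18 (95% interval -0.41 to 0.77) by its brightest probe set. Its other kept probe sets changed by 0.26, 0.38 and 0.39, each with a 95% interval that includes 0. The 24 genes that were not tested had mean signals between 5.63 and 95.7, among them 7 of 8 lectin pathway genes, 5 of 6 terminal pathway genes and the anaphylatoxin receptor genes C3ar1 and C5ar1.

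**Figure D4:**
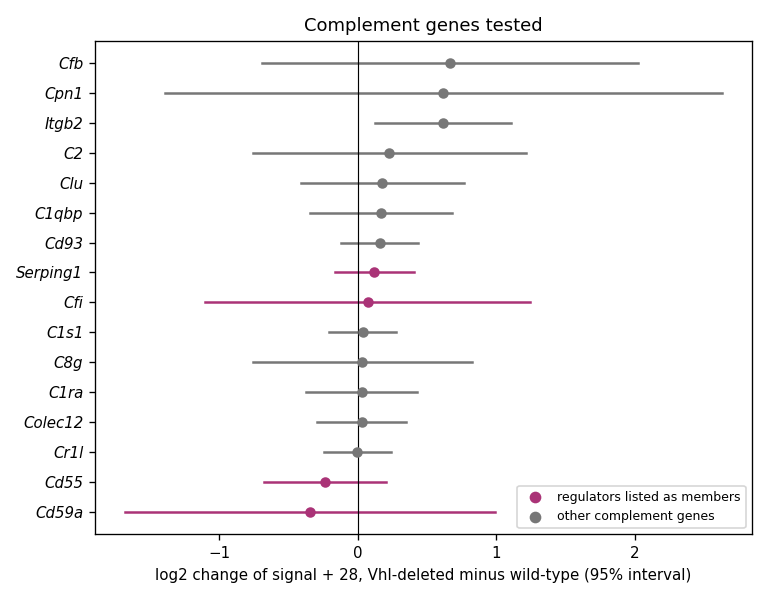
Log2 change of signal + 28, Vhl-deleted minus wild-type, with its 95% interval from limma (points and bars, n = 3 arrays per group) for the 16 complement genes tested; members are in purple and other complement genes in grey. The Itgb2 interval, 0.13 to 1.10, lies above 0, and all the others include 0.

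Other cell types that the preparation could hold moved as follows, with 0 members past the limma threshold in each list (at an unadjusted p under 0.05, where 4.92% of all genes lay, were 1 of 8 podocyte markers, 2 of 9 mesangial markers and 4 of 4 heat shock genes). All 8 podocyte markers tested had a negative change (median -0.32; Plce1 at -0.57 had the lowest p), and all 13 proximal tubule markers (median 0.70; Kap at 0.73) and all 8 distal nephron markers (median 0.32; Fxyd2 at 0.47) a positive one. The tubule directions turned without wild-type replicate 3, to a median of -0.03 for the proximal and -0.04 for the distal markers, and the podocyte median was then -0.16. The median was 0.07 for 10 endothelial markers (7 positive, with Kdr highest at 0.28 and Pecam1 lowest at -0.21). It was 0.20 for 9 mesangial markers (8 positive, Myl9 at 0.40) and 0.22 for 7 parietal epithelial markers (5 positive, Cd44 at 0.35). The erythroid gene tested, Alas2, was at -0.40 (-0.69 without wild-type replicate 3). Without that array the endothelial, mesangial and parietal medians were 0.19, 0.29 and -0.07. The 4 heat shock genes, listed after values were seen, all lay lower in the Vhl-deleted arrays without overlap, as did 629 of all 11159 genes tested. Hspa1a was at -1.55, Hspa1b at -0.93, Hsph1 at -0.67 and Dnajb1 at -0.59, and none passed (the lowest limma adjusted p was 0.346, for Dnajb1). The 10 immediate early genes had a median of 0.10 (Junb had the lowest p), which ran from -0.32 (Vhl-deleted replicate 3 left out) to 0.74 (wild-type replicate 2 left out). Of these lists only the proximal tubule level was added to the model, and the part of any list in the complement values was not tested.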

How the data were processed

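The deposited values are intensities, MAS5 signals per the submitters' processing notes (no version named), with scaling settings not given in the sources used here. On each of the 6 arrays the 2% trimmed mean was 500, and medians lay between 94.6 and 107.5. Precision is limited by having 3 arrays per group. Only the 34945 probe sets with a single symbol in the array annotation were used, not the 932 with several or the 9160 with none.

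Signals were transformed to log2 after adding 28, the 25th percentile, which makes changes of dim genes smaller. The upper 50% of probe sets by mean were kept, and each of 11159 genes was represented by its brightest. The genotypes were tested in R 4.3.3 by limma 3.58.1 (linear model, eBayes with trend, 7.08 degrees of freedom), with Benjamini-Hochberg adjusted p-values called under 0.05. Members too dim to be kept were fitted among all probe sets.

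Members and lists were chosen with earlier results of these data known, and the immediate early and heat shock lists after member values were seen (first as 1 list, split after its values were seen). The naming rule took all members, the 4 other complement genes of lowest p, defining markers, the lowest-p gene of each list, and genes most like the C1q mean. Further complement genes, Fos, Egr1, the heat shock genes and the genes most like Cd59a were named after their values were seen. Alternatives changed the pseudocount, scaling, filter, probe set rule, variance model, array weights, block, a tubule covariate and the arrays used.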

Additional observations from a re-analysis of the deposited data

How the results depend on the processing

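None of the 4 tested members passed the threshold in limma under any of 20 alternatives. Cd55 kept a negative change (-0.37 to -0.052) and Serping1 a positive one (0.038 to 0.19) in all of them. Cfi turned to -0.40 with array weights, -0.37 with the proximal tubule covariate and -0.06 without both wild-type replicate 2 and Vhl-deleted replicate 3 (an alternative added after the data were seen), and ran from -0.39 to 0.44 with single arrays left out. Cd59a turned to 0.14 with array weights and 0.072 with the covariate, and ran from -0.81 to 0.24 with single arrays left out. Without both wild-type replicate 2 and Vhl-deleted replicate 3 the change of Cd59a was -0.22, the direction of the main fit. Cfb turned to -0.043 with array weights (0.046 with the covariate, -0.037 to 1.06 with single arrays left out), and C1qbp to -0.082 with array weights and -0.054 with the covariate (-0.071 to 0.32). The cause of these turns was not tested. Over all genes, 9 passed; the count was 14 with every kept probe set fitted by itself, 33 with array weights, 32 with the covariate, 1 to 12 with single arrays left out and 4 without both arrays named above. With the replicate number as a block 1 gene passed and no member did. Same-numbered arrays correlated at -0.02, -0.41 and -0.51 in their deviations from the group means, and the other pairs at -0.38 to 0.58. Such values cannot show whether the numbers pair the mice, because the 3 deviations of a group are not independent. Cfi and Itgb2 fell below the filter that keeps the upper 30% and have no value there. Low signal over background limits C1q, and 3 arrays per group limit all other values.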
